A study of Mus musculus with 4 samples.

Results

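Glutamate carries most fast excitation in the brain, and the genes described here encode the proteins that load it, sense it and tune the response. The set held every gene of the deposited table whose symbol named a subunit of the AMPA, NMDA, kainate or delta receptors, a metabotropic glutamate receptor, an auxiliary protein of the Neto, cornichon, Shisa, Gsg1l or olfactomedin groups, a neuronal pentraxin or a vesicular glutamate transporter. It comprised 43 of 18042 genes. Symbols decided which genes belong, and the set itself was picked with earlier results of these data known. RNA was measured by RNA-seq in the dentate gyrus of C57BL/6 mice at postnatal day 14, in 2 samples in which Eed was conditionally deleted (Eed cKO) and in 2 wild-type (WT) samples. The labels call the samples biological replicates of each genotype and give no driver or cell type for the deletion, no deleted exon, and no sex, litter or batch.

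Eed is a core subunit of Polycomb repressive complex 2, which methylates lysine 27 of histone H3 and keeps developmental genes silent. AMPA, NMDA and kainate receptors are ion channels that glutamate opens, and delta receptors share their structure but are gated and tethered differently. Metabotropic receptors act through G proteins, with group I coupling to phospholipase C and groups II and III lowering cyclic AMP, often on the presynaptic terminal. Granule neurons of the dentate gyrus receive glutamate from the entorhinal cortex and release it onto CA3 through the mossy fibres. In bulk tissue, fewer cells of a type and less RNA per cell cannot be told apart.

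The deposited values are group means, from which the whole reads of the single libraries were recovered, so the libraries are named Eed cKO A, Eed cKO B, WT A and WT B without a known link to the replicate numbers in the titles. They held between 17263273 and 17789587 counts. Eed itself had 133 and 142 counts in Eed cKO A and B, against 251 and 301 counts in WT A and B. Xist, the RNA of the inactive X chromosome, was read 3809 times in Eed cKO A and at most 11 times elsewhere. The choroid plexus transcript Ttr was read 110 times in WT B and at least 23697 times elsewhere, so each group held a library that stood apart from its partner. The defining markers of granule neurons, Prox1 among them, were read in every library, though Prox1 fell in Eed cKO to 22.8% of its WT mean.

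Of the 43 genes, 41 had at least 10 normalized counts (counts divided by the library's size factor) in at least 2 libraries and were tested. Grin3b and Grm6 were not. The lowest value of a tested member in any library was 54.5, so no tested member was admitted through a single group. In Eed cKO, 4 receptor genes rose (Grin3a, Grm4, Grik3 and Gria4) and 1, Grin2c, fell (limma, adjusted p under 0.05). Among all 15020 genes tested, 3.54% were called higher and 2.9% lower, so the 1 lower gene of 41 stood close to the background, and the 4 higher genes were a larger share of the 41 than of all tested genes. That difference in share was not tested. The median log2 fold change of the 41 was 0.15, and that of all tested genes was 0.00. The groups did not overlap in 29 of the 41 genes, and in 56.8% of all genes tested. The unadjusted p was under 0.05 for 20 of the 41, 15 of them higher and 5 lower. Among all 15020 tested genes it was under 0.05 for 24.8%, with 1857 genes higher and 1865 lower.

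**Figure D1:**
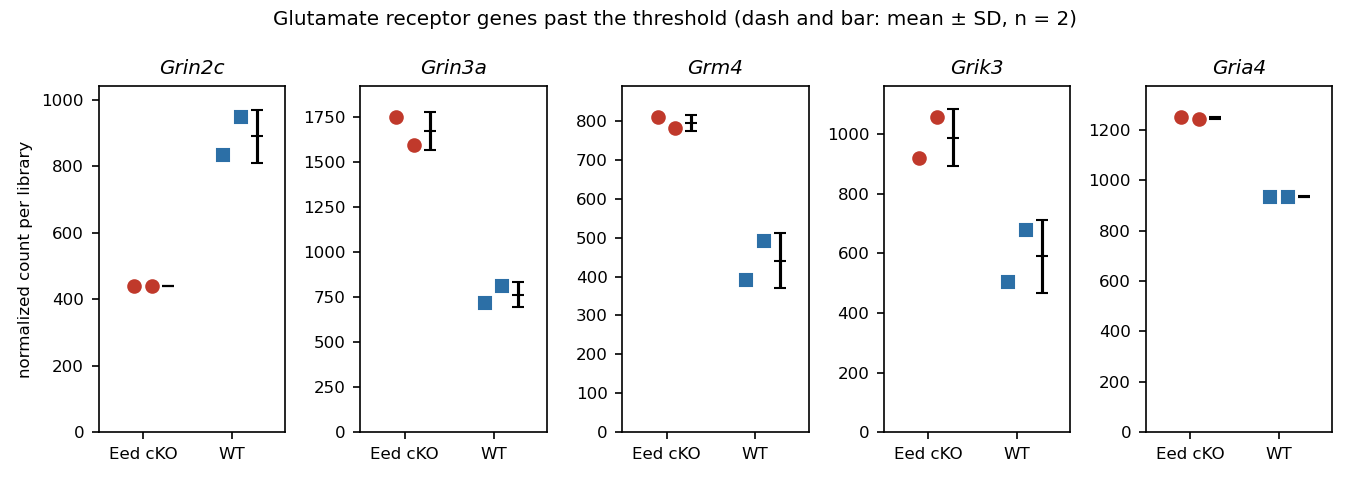
Normalized count per library of the 5 genes past the threshold, with Eed cKO (circles) left of WT (squares), and the mean ± SD over 2 libraries beside each pair. The Grin2c values of both Eed cKO libraries, 441 and 440, lie below both WT values, and in the other 4 genes both Eed cKO values lie above both WT values.

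edgeR called 5 members higher, Grik1 being the fifth, and 1 lower, beside 3.78% higher and 2.87% lower of all genes. DESeq2 on the recovered reads called 6 higher and 2 lower, beside 3.64% and 3.05% of all genes. The limma calls needed both Eed cKO libraries. Without Eed cKO A no member passed at an adjusted p under 0.05, beside 0% of all genes called higher and 0.0474% lower. Without Eed cKO B no member passed at that threshold either, beside 0.0611% of all genes called higher and 0.149% lower. In edgeR, Grin3a (higher) and Grin2c (lower) passed in each case, beside 0.705% higher and 0.617% lower of all genes without Eed cKO A, and 0.563% and 0.428% without Eed cKO B. Leaving out a WT library added calls, but the WT group was then 1 library, assumed to vary like the Eed cKO pair, which alone gave the residual spread. That pair was the closer one, with a median log2 difference of 0.08 over the members, against 0.29 between the WT libraries. Without WT A, 8 members were higher and 3 lower, beside 5.76% and 4.3% of all genes, and without WT B, 11 were higher and 5 lower, beside 4.16% and 2.95%. The 5 genes of the full comparison were among them both times.

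Among the tested members with all 4 libraries, NMDA receptor subunits had the highest and the lowest fold change, though Grm2 (log2 fold change -0.97) and Grm8 (1.04) lay close to them. Grm2 was lower than Grin2c without WT A and without Eed cKO B, and Grm8 was higher than Grin3a without WT B and without Eed cKO A. NMDA receptors join 2 obligatory GluN1 subunits with GluN2 subunits, which bind glutamate, or with GluN3 subunits, which bind glycine. Grin3a encodes GluN3A, which lowers calcium permeability and is prominent in early postnatal life. Grin3a (ENSMUSG00000039579; GRCm38 chromosome 4, 49661611 to 49845744, minus strand, protein coding) had 1748 and 1597 normalized counts in Eed cKO A and B, against 716 and 813 in WT A and B. Both Eed cKO libraries lay well above both WT libraries, and the means were 1672 ± 107 in Eed cKO and 765 ± 68.5 in WT (SD, n = 2 each). The rise was 2.19-fold (limma, log2 fold change 1.13 ± 0.09, adjusted p = 0.00595).

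Grin2c encodes GluN2C, known from cerebellar granule cells and, in the forebrain, from astrocytes. Grin2c (ENSMUSG00000020734; GRCm38 chromosome 11, 115249169 to 115267243, minus strand, protein coding) had 441 and 440 normalized counts in Eed cKO A and B, against 833 and 947 in WT A and B. Its mean fell to 49.5% of the WT mean (log2 fold change -1.01 ± 0.09, limma adjusted p = 0.0079). The Eed cKO libraries were nearly equal, and the WT libraries were apart from each other by less than from either Eed cKO library. Beside it, 4 of 11 astrocyte markers fell (Gja1, Gjb6, Ntsr2 and Slc1a3), 1 rose (S100b) and 6 did not pass, and their summed level was between 78270 and 78762 normalized counts in Eed cKO and between 97019 and 116373 in WT. None of the 11 was at 0 in any library, and their part in the Grin2c result was not tested.

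The major subunits moved less. Grin1, which encodes the obligatory GluN1, had 8660 and 8219 normalized counts in Eed cKO and 9600 and 8761 in WT (limma adjusted p = 0.43). Its exons overlap those of the antisense gene Grin1os over 13.5% of their length, and whether reads were counted by strand is not known. Grin2b, the GluN2B subunit of the immature forebrain, was nearly level, with 6040 and 5899 in Eed cKO and 6057 and 5891 in WT. Grin2a, the GluN2A subunit that takes a larger part as circuits mature, had 3166 and 3237 in Eed cKO and 4426 and 3839 in WT. Its groups did not overlap, but it did not pass in limma (log2 fold change -0.36 ± 0.09, adjusted p = 0.0677), while the authors' deposited table gives it an adjusted p of 0.0188. Grin2d, which encodes GluN2D, had 963 and 863 in Eed cKO and 793 and 735 in WT (limma adjusted p = 0.151).

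The ratio of Grin2a to Grin2b within a library does not depend on the scaling of libraries. On the log2 scale it was -0.93 and -0.87 in Eed cKO A and B, against -0.45 and -0.62 in WT A and B. Both Eed cKO ratios were below both WT ratios, by 0.36 on average, and the exact two-sided permutation test gave p = 0.333, which is the smallest that 2 libraries against 2 allow. Grin3b, the other GluN3 gene, had between 5 and 13 counts in Eed cKO and between 5 and 10 in WT, with 32.1% of its exon length shared with Tmem259, and was not tested.

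Levels of different genes were compared per kilobase of merged GENCODE M21 exon, a length that counts every annotated exon, so genes with long or rarely used exons read low. On this scale Grin3a made up 8.43% and 8.05% of the NMDA receptor family in Eed cKO A and B, against 3.2% and 3.85% in WT A and B. Grin2c made up 5.18% and 5.4% in Eed cKO, against 9.06% and 10.9% in WT. Grin1 held between 52.4% and 52.9% in Eed cKO and between 52.5% and 54.2% in WT, so its share did not separate the groups. Grin3a RNA per kilobase thus stood above that of Grin2c in both Eed cKO libraries and below it in both WT libraries.

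**Figure D2:**
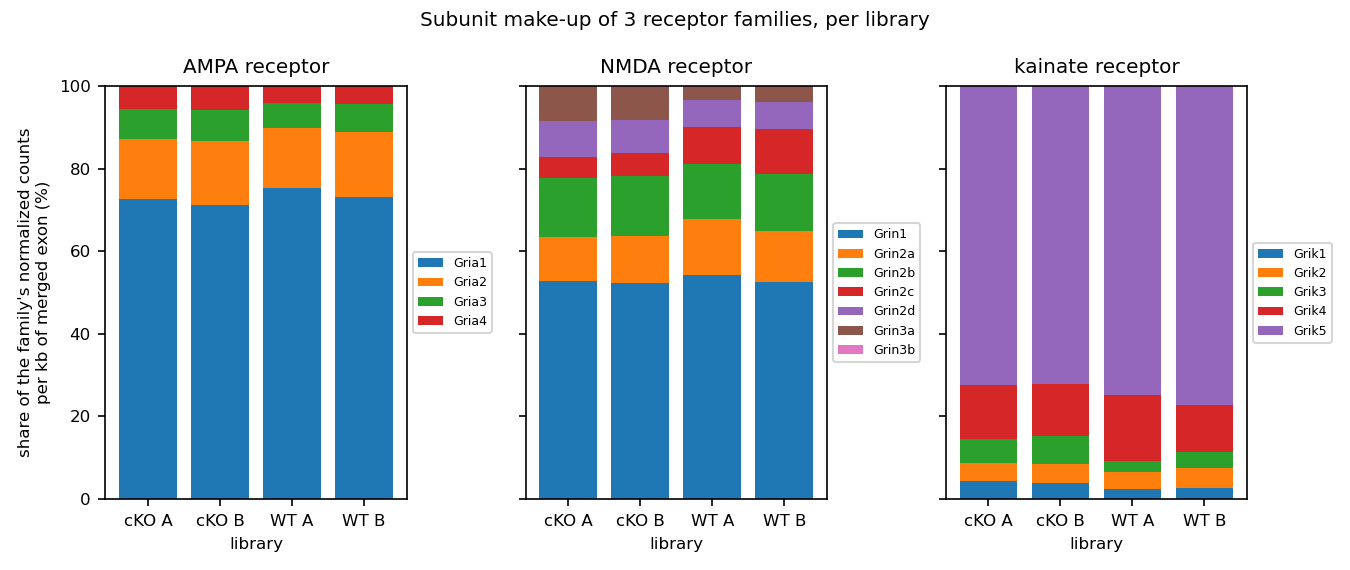
Share of the AMPA, NMDA and kainate receptor families' normalized counts per kilobase of merged exon (percent, stacked) in each library, Eed cKO libraries left of WT libraries. Grin3a widens to over 8% of the NMDA receptor family in both Eed cKO libraries, and Gria1 and Grik5 hold most of the AMPA and kainate families in all 4.

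Among the AMPA receptor subunits 1 of 4 rose and 3 did not pass. Gria4 encodes GluA4, a subunit with fast kinetics that is abundant in interneurons. Gria4 (ENSMUSG00000025892; GRCm38 chromosome 9, 4417896 to 4796234, minus strand, protein coding) had 1248 and 1244 normalized counts in Eed cKO A and B, against 932 and 935 in WT A and B. The rise was 1.33-fold (limma, log2 fold change 0.42 ± 0.07, adjusted p = 0.0235), and the libraries of each group were nearly equal. Gria3, which encodes GluA3 and lies on the X chromosome, had 2618 and 2547 in Eed cKO and 2052 and 2184 in WT (limma adjusted p = 0.0674). Gria1 and Gria2, the main subunits of principal neurons, differed little, with means of 15328 ± 692 in Eed cKO and 15325 ± 960 in WT for Gria1, and 8248 ± 137 in Eed cKO and 8007 ± 149 in WT for Gria2 (SD, n = 2 each). The log2 ratio of Gria1 to Gria2 was 0.96 and 0.83 in Eed cKO and 1.02 and 0.85 in WT, and the groups overlapped (exact permutation p = 0.667).

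Per kilobase, Gria4 took 5.49% and 5.72% of the AMPA subunits in Eed cKO, against 4.21% and 4.47% in WT. Gria1 took between 71.2% and 72.6% in Eed cKO and between 73.1% and 75.4% in WT. The order of the levels per kilobase, Gria1 above Gria2, Gria3 and Gria4, was the same in all 4 libraries.

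Interneuron markers moved beside Gria4. Of 12 GABAergic interneuron markers 3 rose (Dlx2, Erbb4 and Sst) and 9 did not pass, and their summed level was 22765 and 22588 normalized counts in Eed cKO A and B and 16624 and 17256 in WT A and B. No marker of the list was at 0, and its part in the results for Gria4, Grin3a, Grik1 and Grik3 was not tested.

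Of the 9 AMPA receptor auxiliary genes, 0 passed in limma and 0 in edgeR. An unadjusted limma p under 0.05 was reached by 4 of them, all higher. Of all 15020 tested genes, 3722 (24.8%) reached it, 1857 of them higher. Cornichons, Shisa proteins and Gsg1l sit in the AMPA receptor complex and set its export, kinetics or recovery from desensitization. Gsg1l, which slows recovery from desensitization, had 615 and 661 normalized counts in Eed cKO, against 279 and 435 in WT (limma, log2 fold change 0.87 ± 0.20, adjusted p = 0.0656). Cnih3, which encodes cornichon-3, had 1667 and 1591 in Eed cKO, against 960 and 1239 in WT (limma, log2 fold change 0.58 ± 0.13, adjusted p = 0.0535). In each gene both Eed cKO libraries lay above both WT libraries, but the WT libraries were wide apart. The authors' deposited table calls both higher, with an adjusted p of 0.00191 for Gsg1l and 0.00264 for Cnih3. Both were called higher by limma without WT A and without WT B too, where the residual spread came from the Eed cKO pair alone.

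Shisa9, also named CKAMP44 and known from dentate granule neurons in mouse, had 1436 and 1373 normalized counts in Eed cKO and 877 and 1231 in WT (limma adjusted p = 0.161). Cnih2, the far more abundant cornichon, had 13615 and 12848 in Eed cKO and 15484 and 13965 in WT (limma adjusted p = 0.376). Shisa6 had 3338 and 2961 in Eed cKO, between its WT values of 4389 and 2805, and Shisa7 had 4421 and 4575 in Eed cKO and 5046 and 4687 in WT. The olfactomedins Olfm1, Olfm2 and Olfm3, secreted proteins found with AMPA receptors, had log2 fold changes between 0.15 and 0.33 and did not pass.

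The neuronal pentraxins gather AMPA receptors from outside the cell, and of the 3 genes 0 passed in either limma or edgeR. An unadjusted limma p under 0.05 was reached by 0 of them, beside 24.8% of all tested genes. Nptx1 had 5957 and 4805 normalized counts in Eed cKO, against 9111 and 6081 in WT (limma, log2 fold change -0.48 ± 0.20, adjusted p = 0.215). Nptx2 had 1339 and 1309 in Eed cKO and 1242 and 1015 in WT, and the receptor gene Nptxr had 35371 and 27699 in Eed cKO and 36622 and 21179 in WT. Nptxr shares 17.2% of its exon length with Npcd on the same strand, so part of its reads could belong to either.

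**Figure D3:**
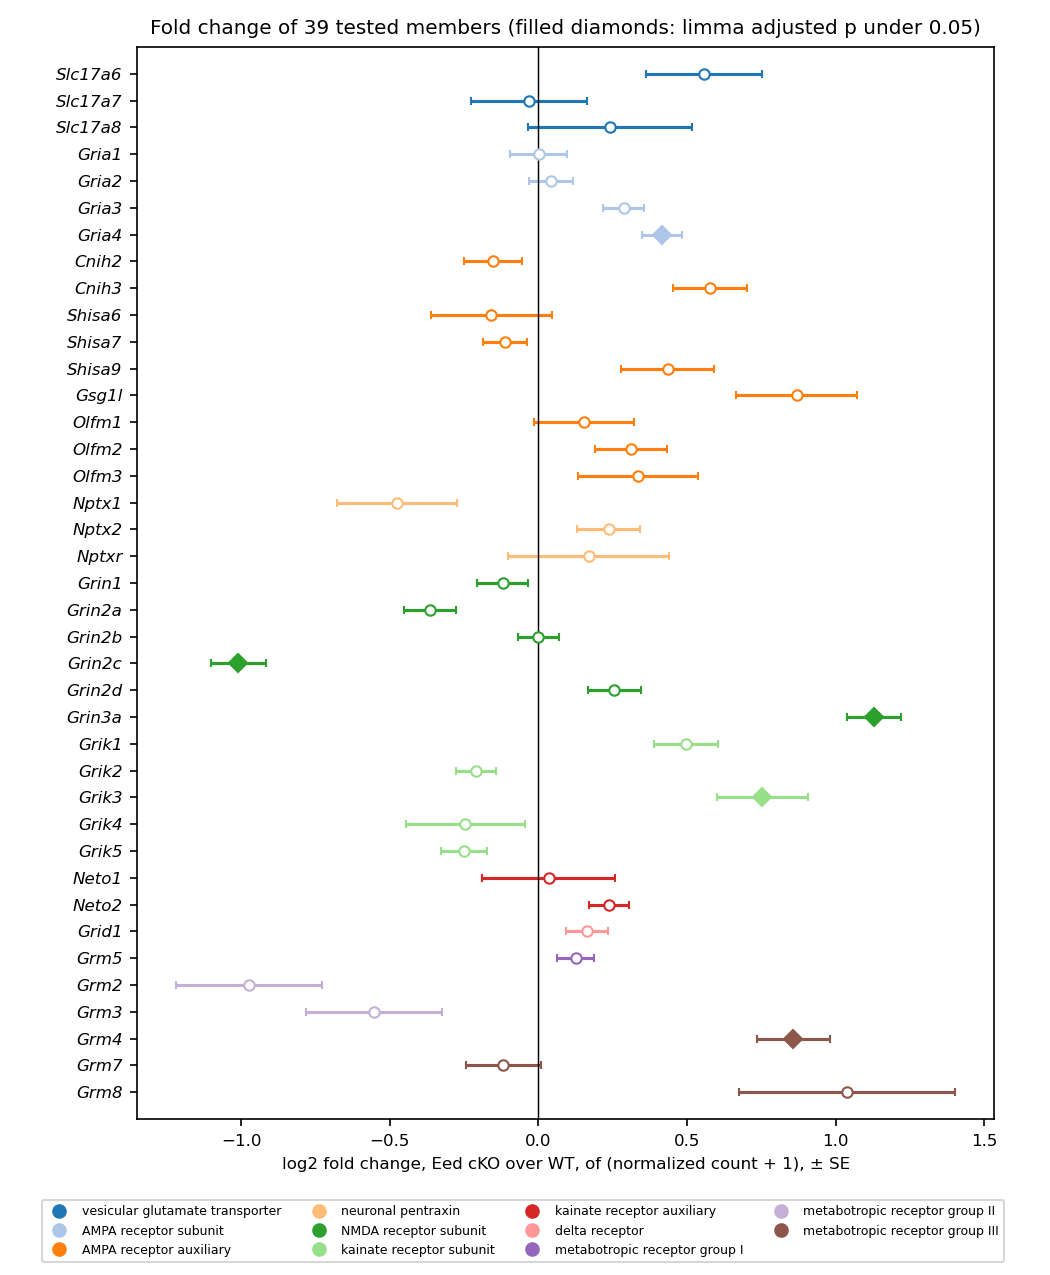
Eed cKO over WT, as a fold change on the log2(normalized count + 1) scale, ± SE, for 39 of the 41 tested genes, coloured by class, with filled diamonds for limma adjusted p under 0.05. Values run from -1.01 for Grin2c to 1.13 for Grin3a, and the filled points are Gria4, Grin2c, Grin3a, Grik3 and Grm4.

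Of the 5 kainate receptor subunits 1 rose and 4 did not pass. Kainate receptors act on both sides of the synapse, and mossy fibre synapses are a classic site. Grik3 encodes GluK3, a low-affinity subunit. Grik3 (ENSMUSG00000001985; GRCm38 chromosome 4, 125490700 to 125714173, plus strand, protein coding) had 920 and 1056 normalized counts in Eed cKO A and B, against 503 and 678 in WT A and B. The rise was 1.67-fold (limma, log2 fold change 0.75 ± 0.15, adjusted p = 0.046), and both groups were spread more widely than for Gria4. The call was lost with TMM scaling (adjusted p = 0.0501) and with no filter on low counts (adjusted p = 0.094).

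Grik1, which encodes GluK1 and is known from interneurons, had 538 and 463 normalized counts in Eed cKO and 354 and 353 in WT (limma, log2 fold change 0.50 ± 0.11, adjusted p = 0.0518). edgeR called it higher (adjusted p = 0.0408). Grik2 (GluK2), Grik4 (GluK4) and Grik5 (GluK5) had log2 fold changes between -0.25 and -0.21 and did not pass. Grik4, abundant in CA3 and granule neurons, had 1401 and 1293 in Eed cKO, between its WT values of 1994 and 1276. Beside Grik4 and the main subunits of principal neurons, 5 of 13 CA pyramidal neuron markers rose (Crym, Man1a, Mpped1, Nov and Ociad2), 1 fell (Wfs1) and 7 did not pass. Their summed levels were 33166 and 35497 normalized counts in Eed cKO and 28279 and 26438 in WT. Nov alone held 6090 and 9171 of these in Eed cKO and 1352 and 2379 in WT. Without Nov the sums of the groups overlapped. None of the 13 markers was at 0, and their part in these values was not tested. The log2 ratio of Grik4 to Grik5 was -2.26 and -2.32 in Eed cKO and -2.03 and -2.57 in WT (exact permutation p = 1). Per kilobase Grik5 held between 72.2% and 72.5% of the kainate subunits in Eed cKO and between 74.8% and 77.2% in WT, and Grik3 held 5.72% and 6.79% in Eed cKO and 2.66% and 3.99% in WT.

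The kainate receptor auxiliary genes did not pass in limma or edgeR. Neto2, 1 of the 2, had an unadjusted limma p under 0.05, beside 24.8% of all tested genes. Neto2 had 1131 and 1154 normalized counts in Eed cKO and 976 and 961 in WT (limma adjusted p = 0.1). Neto1, which also binds NMDA receptors, had 2000 and 1910 in Eed cKO, between 2470 in WT A and 1474 in WT B. Its log2 fold change was 0.41 against WT B alone and -0.34 against WT A alone, so its direction depended on which WT library was used.

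Grid1, a delta receptor gene whose protein binds cerebellins across the synapse, had 1637 and 1535 normalized counts in Eed cKO and 1394 and 1436 in WT. Both Eed cKO libraries lay above both WT libraries, but it did not pass in limma (adjusted p = 0.216) or edgeR.

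Promoters were read from RefSeq (GRCm38.p6), from 250 bases before to 50 bases after the start. They were found for 25 of the 43 genes, including 3 of the 5 past the threshold. These 3 are shown because Polycomb repressive complex 2 is known to gather at CpG-rich promoters; each is printed 5′ to 3′ on the gene's own strand, with every CG in capitals. Gria4 lies at chr9:4796185-4796484, Grik3 at chr4:125490446-125490745 and Grin2c at chr11:115267194-115267493.
Gria4: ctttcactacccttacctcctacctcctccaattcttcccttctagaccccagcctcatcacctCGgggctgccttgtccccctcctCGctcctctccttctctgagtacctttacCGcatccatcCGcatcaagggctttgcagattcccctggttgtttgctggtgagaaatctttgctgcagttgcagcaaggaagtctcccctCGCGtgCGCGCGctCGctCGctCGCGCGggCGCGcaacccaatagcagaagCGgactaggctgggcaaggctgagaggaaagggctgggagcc
Grik3: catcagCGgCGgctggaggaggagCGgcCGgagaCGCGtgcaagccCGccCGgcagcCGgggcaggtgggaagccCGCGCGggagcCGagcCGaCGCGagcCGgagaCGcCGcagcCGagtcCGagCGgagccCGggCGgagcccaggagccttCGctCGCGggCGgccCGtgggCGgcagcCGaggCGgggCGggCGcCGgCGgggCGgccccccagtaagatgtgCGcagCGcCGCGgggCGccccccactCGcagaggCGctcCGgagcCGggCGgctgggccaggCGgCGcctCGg
Grin2c: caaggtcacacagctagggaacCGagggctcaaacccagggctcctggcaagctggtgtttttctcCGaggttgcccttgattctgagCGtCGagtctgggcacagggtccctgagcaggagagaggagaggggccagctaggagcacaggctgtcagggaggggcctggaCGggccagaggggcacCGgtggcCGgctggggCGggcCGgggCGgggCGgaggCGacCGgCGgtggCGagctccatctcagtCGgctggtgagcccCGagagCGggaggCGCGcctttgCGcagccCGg

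These windows held 17 CG for Gria4, 50 for Grik3 and 22 for Grin2c. CG is its own reverse complement, so the count is the same on both strands. Of all 32851 promoter windows of this length, 31.4% held at least as many as Gria4, 0.855% at least as many as Grik3 and 23.1% at least as many as Grin2c. The median was 15 over the 35 windows of the 25 genes and 7 over all windows. The windows of Gria4 and Grik3, which rose, and of Grin2c, which fell, were above that overall median. Grin3a and Grm4, which also rose, had no window. Windows of members that did not pass held between 0 CG, in a Neto2 window, and 43 CG, in an Olfm1 window. The other Neto2 window held 36 CG, and the other Olfm1 window held 32 CG. No mark or binding was measured here.

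The metabotropic receptors included 1 gene that rose, and 6 that did not pass. Grm4 encodes mGlu4, a presynaptic group III receptor. Grm4 (ENSMUSG00000063239; GRCm38 chromosome 17, 27422387 to 27521403, minus strand, protein coding) had 808 and 780 normalized counts in Eed cKO A and B, against 390 and 490 in WT A and B. The rise was 1.8-fold (limma, log2 fold change 0.86 ± 0.12, adjusted p = 0.0176), and the gap between the groups was larger than that within either. Of the other group III genes, Grm8 had 140 and 192 in Eed cKO and 54.5 and 115 in WT (limma, log2 fold change 1.04 ± 0.36, adjusted p = 0.153), with a larger standard error than any other tested member. Grm7, the mGlu7 gene of active zones, had 1018 and 1152 in Eed cKO and 1316 and 1050 in WT (adjusted p = 0.604). Grm6, known from retinal bipolar cells, had 0 and 1 counts in Eed cKO and 4 and 1 in WT and was not tested. A count of 0 allows up to 3, which covers counting error only.

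Among the tested metabotropic receptors the group II genes had the lowest fold changes, though neither passed. Grm2 encodes mGlu2, which is present on mossy fibres, and Grm3 encodes mGlu3, which astrocytes express too. Grm2 had 783 and 999 normalized counts in Eed cKO A and B, against 1345 and 2248 in WT A and B (limma, log2 fold change -0.97 ± 0.25, adjusted p = 0.0766). Grm3 had 492 and 544 in Eed cKO, against 588 and 980 in WT (limma, log2 fold change -0.55 ± 0.23, adjusted p = 0.206). In neither gene did the groups overlap, and WT B stood far above WT A in both. With WT B as the sole WT library, limma gave an adjusted p of 0.00583 for Grm2 and 0.00749 for Grm3, and with WT A as the sole one neither passed. The spread of the WT group does not enter these values. The log2 ratio of Grm2 to Grm3 was 0.67 and 0.88 in Eed cKO and 1.19 and 1.2 in WT, so both Eed cKO ratios were lower (exact permutation p = 0.333). Beside Grm2, 6 of 12 mature granule neuron markers fell (Dsp, Lct, Npnt, Plk5, Prox1 and Stxbp6), 1 rose (Ntng1) and 5 did not pass, and their summed level was 9283 and 8616 normalized counts in Eed cKO and 12936 and 16731 in WT, with none at 0. The part of these cells in the Grm2 values was not tested.

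Grm5 encodes mGlu5, a group I receptor that acts from the postsynaptic side. Grm5 had 2943 and 2951 normalized counts in Eed cKO and 2683 and 2721 in WT (limma adjusted p = 0.277). Per kilobase, Grm4 made up 13.0% and 11.6% of the metabotropic receptors in Eed cKO and 5.67% and 5.77% in WT, and Grm2 made up 15.4% and 18.1% in Eed cKO and 23.9% and 32.3% in WT.

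The vesicular transporters, which fill synaptic vesicles with glutamate, did not pass in limma or edgeR. An unadjusted limma p under 0.05 was reached by 1 of the 3, beside 24.8% of all tested genes. Slc17a7 encodes VGLUT1, the transporter of hippocampal and cortical neurons, and had 46589 and 45093 normalized counts in Eed cKO, between 55844 in WT A and 39249 in WT B. Slc17a6 encodes VGLUT2, the transporter of thalamic and other subcortical neurons and of immature neurons. Slc17a6 had 846 and 892 in Eed cKO, against 476 and 732 in WT (limma, log2 fold change 0.56 ± 0.19, adjusted p = 0.153). Its log2 fold change was 0.87 without WT B and 0.25 without WT A, so its size depended on which WT library was used. Beside Slc17a6, 2 of 9 tested thalamic neuron markers rose (Lhx9 and Ntng1), 1 fell (Plekhg1) and 6 did not pass. The summed levels of this list were 7406 and 6856 in Eed cKO and 6115 and 6235 in WT. Lhx9 alone held 1405 and 1196 of these in Eed cKO and 453 and 348 in WT. Without Lhx9 the sums of the groups overlapped. Of 9 immature granule neuron markers 7 fell, Dcx and Neurod1 among them, 0 rose and 2 did not pass, with summed levels of 9479 and 8678 in Eed cKO and 17439 and 20602 in WT. The thalamic and immature granule neuron lists both hold Calb2. Ntng1 is on the thalamic and the mature granule neuron lists, and Prox1 is on both granule neuron lists. The untested thalamic marker Gbx2 had at most 6.02 normalized counts in Eed cKO and 0 in both WT libraries. No other marker of the thalamic or immature granule neuron list was at 0. Their part in the Slc17a6 values was not tested. The log2 ratio of Slc17a6 to Slc17a7 was -5.78 and -5.66 in Eed cKO, and -6.88 and -5.74 in WT, so the groups overlapped (exact permutation p = 0.667). Per kilobase Slc17a7 held between 97.8% and 98.9% of the 3 transporters in every library. Slc17a8, the VGLUT3 gene, had 95.8 and 105 in Eed cKO, between its WT values of 111 and 64.8.

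**Figure D4:**
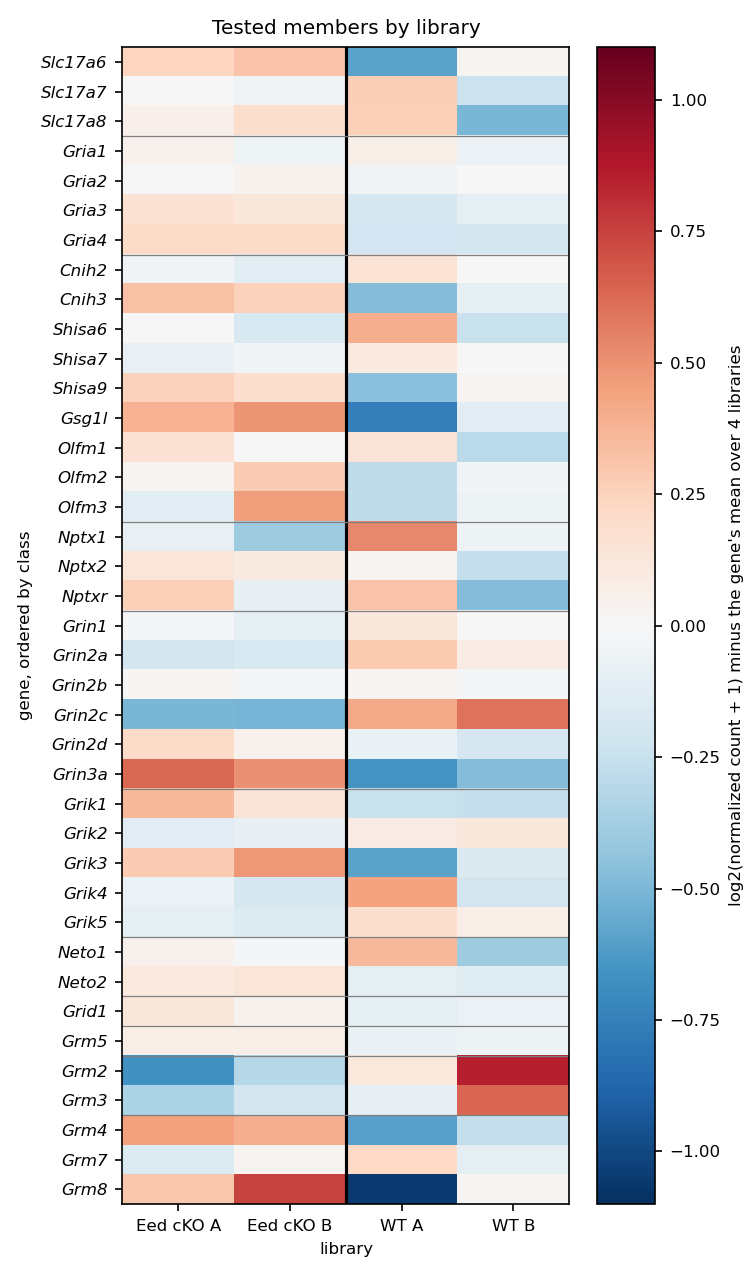
Log2(normalized count + 1) of 39 of the 41 tested genes in each library minus the gene's mean over the 4 libraries (colour scale, log2 units), Eed cKO libraries left of WT libraries, genes ordered by class. The Eed cKO columns resemble each other, while WT A and WT B have opposite colours in several genes, such as Neto1, with 2470 normalized counts in WT A and 1474 in WT B.

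The authors' deposited table, made with DESeq2, calls 8 of the 43 genes at an adjusted p under 0.05. These are the 5 genes above with the same directions, Cnih3 and Gsg1l as higher and Grin2a as lower. Among the 15043 genes for which that table lists an adjusted p below 1, it calls 3.73% higher and 3.23% lower. Its log2 fold changes are 1.13 for Grin3a and -1.02 for Grin2c.

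Other genes of glutamate signalling were taken from 5 lists that hold no member of the set. Of 102 tested genes on them, 3 rose and 3 fell in limma, beside 3.54% higher and 2.9% lower among all tested genes. DESeq2 on the recovered reads called 4 genes of these lists higher and 10 lower, beside 3.64% and 3.05% of all genes. Of 18 further AMPA receptor auxiliary and biogenesis genes, the TARPs among them, 0 passed in limma and 0 in edgeR. An unadjusted limma p under 0.05 was reached by 7 of them, all lower in Eed cKO. Of all 15020 tested genes, 3722 (24.8%) reached it, 1865 of them lower. The smallest p was that of the biogenesis factor Frrs1l, with 3775 and 3734 normalized counts in Eed cKO and 4916 and 4479 in WT (adjusted p = 0.0646). Of 7 tested ligands of the C1q family, C1ql3, a ligand made by granule neurons for kainate receptors and for an adhesion receptor, fell to 61.5% of WT, with 484 and 499 in Eed cKO and 683 and 916 in WT (limma adjusted p = 0.0494). Of 31 postsynaptic density genes, Grip1, which binds the tails of GluA2 and GluA3, rose 1.47-fold, with 789 and 751 in Eed cKO and 544 and 500 in WT (adjusted p = 0.0209).

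Of 28 genes of metabotropic receptor signalling, Rgs4, which speeds the shutdown of Gq and Gi signals, rose 1.67-fold, with 7586 and 7304 normalized counts in Eed cKO and 4293 and 4639 in WT (limma adjusted p = 0.00966). Caln1, a neuronal calcium-binding protein, rose 1.25-fold (adjusted p = 0.0479). Of 18 tested genes of glutamate uptake and metabolism, 2 fell. Slc7a11, the cystine-glutamate exchanger, fell to 31.5% of WT, with 285 and 291 in Eed cKO and 770 and 1061 in WT (adjusted p = 0.00821). Slc1a3, the astrocyte glutamate transporter GLAST, fell to 59.8% of WT, with 9876 and 9569 in Eed cKO and 14480 and 18028 in WT (adjusted p = 0.027), and it is also one of the 4 astrocyte markers that fell.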

How the data were processed

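RNA-seq of 4 dentate gyrus samples was deposited as a single comparison table. Per the submitters' processing notes, HISAT2 2.1.0, DESeq2 1.2.0 and GRCm38 were used. How reads were assigned to genes, and with which annotation, is not given in the sources used here. The authors deposited, per the file headers, a mean normalized signal per group, the mean of both, a log2 fold change and its error, a Wald score, and p-values before and after adjustment. Each group signal is a whole-number combination of 2 steps, so whole reads were recovered for 100% of 18042 genes (tolerance 1e-08). The adjusted p of 1 was treated as missing.

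From these reads, normalized counts were tested with limma 3.58.1 (intensity trend, log2(normalized count + 1), genotype only, 2 residual and 4 prior degrees of freedom), with Benjamini-Hochberg adjustment over 15020 genes. Genes under 10 normalized counts in more than 2 libraries were left out. Calls needed an adjusted p under 0.05. The log2(normalized count + 1) scale understates changes of low genes. edgeR 4.0.16 and DESeq2 1.42.0 on the recovered reads, other scaling, filters and a pseudocount of 5, and leaving out each library were alternatives. All tools were tested on simulated data, drawn with a single setting of spread for every gene and library. That test therefore does not cover library pairs as unequal as these. Since the title numbers could not be tied to libraries, no block was fitted. Replicates are called biological in the design text. The single values of 2 members are not reported here. Values of every member past the threshold are given, and of each list up to 3 genes with the smallest p. The members and lists were chosen with earlier results of these data known.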

Additional observations from a re-analysis of the deposited data

How the results depend on the processing

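With 2 libraries a group, leaving one out decides most calls. In limma the number of members higher ranged from 0 to 11 (4 with all libraries) and lower from 0 to 5 (1 with all libraries) when single libraries were left out. With edgeR, chosen as a test for this after the data were seen, the ranges were 1 to 11 higher and 1 to 5 lower. Over all genes, limma called between 0 and 858 higher and between 7 and 640 lower, and edgeR between 83 and 910 higher and between 63 and 813 lower. For the related lists the ranges in limma were 0 to 8 higher and 0 to 11 lower, and in edgeR 0 to 9 higher and 1 to 14 lower. DESeq2 called 2 members and 10 genes of the related lists lower, beside 3.05% of all genes. With no filter, 271 genes were higher and 202 lower over the table, and 1 gene of the related lists was lower. The cause was not tested.

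Grin3a, Grm4, Gria4 and Grin2c passed under TMM scaling, edgeR, DESeq2, a pseudocount of 5, no filter and a filter of 50. No member past the threshold changed direction under any alternative. Some members near 0 did. Grin2b had a log2 fold change of 0.0084 in edgeR and 0.0026 in DESeq2, and Neto1 of -0.0026 in edgeR and -0.0082 in DESeq2.
When single libraries were left out, the log2 fold change ranged from -0.28 to 0.22 for Slc17a7, from -0.14 to 0.63 for Slc17a8, from -0.063 to 0.065 for Gria1, from -0.48 to 0.16 for Shisa6, from -0.069 to 0.38 for Olfm1, from -0.23 to 0.56 for Nptxr, from -0.0211 to 0.019 for Grin2b, from -0.57 to 0.076 for Grik4, from -0.34 to 0.41 for Neto1 and from -0.28 to 0.0439 for Grm7. The difference in log2 ratio ranged from -0.45 to -0.28 for Grin2a over Grin2b, from -0.12 to 0.0412 for Gria1 over Gria2, from 0.0225 to 1.15 for Slc17a6 over Slc17a7, from -0.52 to -0.32 for Grm2 over Grm3 and from -0.26 to 0.27 for Grik4 over Grik5. No paired analysis was possible because the recovered libraries carry no replicate number. Depth limits Grin3b and Grm6, with at most 13 counts in a library.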

Other observations

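The WT libraries lay further apart than the Eed cKO libraries in most members; this is a description of 2 libraries a group, with no test. The median size of the log2 difference between WT A and WT B was 0.29 over the 41 members and 0.14 over all 15020 tested genes. Between the Eed cKO libraries the same median was 0.08 over the members and 0.11 over all tested genes. The gap between the WT libraries was larger than that between the Eed cKO libraries in 34 of the 41 members and in 8542 of all tested genes. In 9 members both Eed cKO libraries lay between the WT libraries (Slc17a7, Slc17a8, Gria1, Shisa6, Nptxr, Grin2b, Grik4 and Neto1 among them), as they did in 11.8% of all tested genes. Markers of CA pyramidal neurons summed to 33166 and 35497 normalized counts in Eed cKO A and B, and to 28279 and 26438 in WT A and B. Of these, Nov alone held 6090 and 9171 in Eed cKO A and B, and 1352 and 2379 in WT A and B. Without Nov the sums of the groups overlapped. Markers of the choroid plexus summed to 36576 and 24374 in Eed cKO A and B, and to 34228 and 318 in WT A and B. Their part in these differences was not tested.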
